A study of Mus musculus with 12 samples.

Results

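The long non-coding RNAs (lncRNAs) *Neat1*, *Malat1*, *Tug1*, *Pvt1* and *Miat* were described in G1-phase mouse embryonic stem cells (ESCs) with and without P53. They were chosen by symbol, and all 5 had a row among the 24881 gene symbols of the expression table. The cells were R1 ESCs carrying the FUCCI reporters, fluorescent proteins that rise and fall with the cell cycle, and the G1 cells were isolated by sorting. RNA was depleted of ribosomal RNA and reverse-transcribed with random primers, so RNAs without a poly(A) tail were retained. The 4 groups were WT and P53-/- ESCs in serum and WT and P53-/- ESCs in 2i, with 2 libraries each. The 2i condition is a medium with inhibitors of MEK and GSK3 that holds ESCs in the ground state, and serum ESCs are a more heterogeneous population. P53-/- cells had been made by CRISPR-Cas9 cutting of a shared *Trp53* exon followed by picking of single-cell colonies. The study used P53-/- clones 1 and 2 for the sequencing, and which library came from which clone is not given in the sources used here. Differences between P53-/- and WT cells are called P53 effects below. They cannot be told apart from other differences between the picked clones and WT cells. The labels do not say whether libraries of a group came from separate cultures, so p values measure the spread between these libraries, which may be technical.

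LncRNAs are transcribed and often spliced like messenger RNAs but act as RNA. *Neat1* is the scaffold of paraspeckles, nuclear bodies that hold RNA-binding proteins. *Malat1*, its neighbour in the genome, lies in the nuclear speckles that store splicing factors and is among the most abundant nuclear RNAs of mammalian cells. *Tug1* is a broadly expressed lncRNA that has been linked to Polycomb proteins. *Pvt1* lies beside *Myc* and is known for its co-amplification with that gene in tumours, and *Pvt1* and *Neat1* have both been described as P53 target genes. *Miat*, also called Gomafu, is a nuclear RNA known mainly from neurons, whose repeats of a short splicing-like motif bind SF1 and Quaking proteins.

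Sequences are given for the RNAs whose levels are compared, to show what was measured and what differs between their promoters. *Pvt1* and *Neat1*, the RNAs lower in P53-/- 2i ESCs whose promoters had no entry in the RefSeq promoter table, are shown by the first 120 bases of their longest GENCODE M21 transcripts. The 2 lines that follow are in lower case, without a marked motif. The first 30 bases shown for *Pvt1* occur in 4 of its 10 annotated transcripts, and those shown for *Neat1* in 1 of its 4.
Pvt1 transcript, bases 1 to 120 of 3319: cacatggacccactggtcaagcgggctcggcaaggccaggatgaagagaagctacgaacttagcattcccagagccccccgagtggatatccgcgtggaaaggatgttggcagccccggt
Neat1 transcript, bases 1 to 120 of 20771: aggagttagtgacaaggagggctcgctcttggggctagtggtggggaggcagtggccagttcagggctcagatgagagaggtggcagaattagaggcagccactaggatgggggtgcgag

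RefSeq promoters (GRCm38.p6, 250 bases before to 50 bases after the start) were at hand for 3 of the 5 RNAs, *Malat1*, *Tug1* and *Miat*. They were searched on both strands for the P53 half-site consensus, a self-complementary motif, and none of the 3 windows held a match. Of 32851 promoter windows, 8.36% held at least 1 match. *Cdkn1a*, which encodes P21 and is a classical P53 target, has 2 windows in the table, and the one shown beside those of *Malat1* and *Tug1* was picked as an example of the motif, since it holds 2 matches, printed in capitals. The other *Cdkn1a* window (chr17:29093519-29093818) and that of *Eda2r*, also described as a P53 target, held 0. The *Malat1* window had a GC content of 47.0% and 10 CpG dinucleotides, and the *Tug1* window 71.3% and 37. A match is a description of the letters and no evidence of binding, and the absence of one says nothing about sites elsewhere.
Malat1, chr19:5802623-5802922, minus strand: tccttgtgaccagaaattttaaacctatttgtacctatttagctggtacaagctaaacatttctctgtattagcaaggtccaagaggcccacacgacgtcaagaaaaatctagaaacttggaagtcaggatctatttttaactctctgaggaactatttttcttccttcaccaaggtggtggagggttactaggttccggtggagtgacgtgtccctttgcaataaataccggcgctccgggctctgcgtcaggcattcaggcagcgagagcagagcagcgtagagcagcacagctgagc
Tug1, chr11:3648765-3649064, minus strand: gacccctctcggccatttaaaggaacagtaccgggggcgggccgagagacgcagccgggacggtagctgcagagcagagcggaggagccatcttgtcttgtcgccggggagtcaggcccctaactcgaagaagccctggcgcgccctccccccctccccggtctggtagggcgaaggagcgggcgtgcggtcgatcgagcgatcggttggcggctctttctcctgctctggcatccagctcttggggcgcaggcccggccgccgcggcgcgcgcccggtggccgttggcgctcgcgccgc
Cdkn1a, chr17:29090729-29091028, plus strand: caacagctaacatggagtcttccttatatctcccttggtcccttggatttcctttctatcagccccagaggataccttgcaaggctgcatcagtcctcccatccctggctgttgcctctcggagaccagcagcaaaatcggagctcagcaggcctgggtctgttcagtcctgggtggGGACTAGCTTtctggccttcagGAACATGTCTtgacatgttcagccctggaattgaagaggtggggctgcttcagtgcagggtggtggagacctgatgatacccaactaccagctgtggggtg

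The *Miat* repeat is shown because the repeat is the best known sequence feature of this RNA. The longest *Miat* transcript (9163 bases) held 6 copies of TACTAAC on its sense strand, 3 of them in capitals in the stretch from base 4921 to base 5092. The motif was found in 0.791% of 43103 windows of 300 bases from annotated lncRNAs, and 4 of those windows held 3 or more copies. The *Miat* stretch was picked as the window with the most copies at any start. The windows counted were fixed and adjacent, could split a cluster and included those of *Miat*, so the counts are not alike.
Miat transcript, bases 4921 to 5092: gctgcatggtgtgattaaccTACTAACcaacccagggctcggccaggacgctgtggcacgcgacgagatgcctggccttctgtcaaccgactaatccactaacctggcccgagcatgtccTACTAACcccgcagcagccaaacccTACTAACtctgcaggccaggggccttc

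Levels were given by the authors as FPKM (fragments per kilobase of transcript, scaled to the mapped fragments of the library), so levels of different genes are compared per length. Depth, estimated from the steps between low values, was 5200000 to 13000000 fragments per library up to a common factor. *Trp53* itself was at 26.8 and 33.7 FPKM for WT 2i, 7.25 and 1.88 for P53-/- 2i, 77.6 and 75.1 for WT serum, and 16.8 and 3.68 for P53-/- serum, so every P53-/- library lay below every WT library. The *Trp53* difference was called in 2i, at a log2 fold change of -2.98 (limma adjusted p = 0.0547), and missed the threshold in serum, at -3.26 (limma adjusted p = 0.15). *Cdkn1a* was lower in P53-/- by 2.24 on the log2 scale in 2i (limma adjusted p = 0.00218), with a value of -2.18 in serum (limma adjusted p = 0.00601). All 10 ESC markers examined were present in each group, with summed levels of 3660 to 4580 FPKM. Of the 10, limma called 1 lower for P53 in 2i and 0 in serum, with 3 and 1 at an unadjusted p under 0.05. Of all genes tested, 10.3% and 1.02% were called for P53 in these cultures. Between cultures, 3 markers were lower and 1 higher in 2i in WT, and 6 lower and 1 higher in P53-/- cells. The shares of all genes tested were 55.7% and 58.2% there. With only 10 markers, their counts cannot be set apart from these shares.

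*Malat1* had the highest level of the 5 RNAs in each group. Its FPKM was 435 and 318 for WT 2i, 157 and 162 for P53-/- 2i, 791 and 808 for WT serum, and 784 and 701 for P53-/- serum. These group means exceeded those of 95.3% to 98.4% of the 12572 genes tested. *Tug1* was second, with 20.9 and 28.9 FPKM for WT 2i, 26.6 and 27.6 for P53-/- 2i, 50.5 and 59.0 for WT serum, and 64.7 and 55.8 for P53-/- serum. Its libraries fell into a lower 2i range and a higher serum range, with WT and P53-/- overlapping in each. *Neat1* was at 12.7 and 12.4 FPKM for WT 2i, 5.87 and 5.05 for P53-/- 2i, 20 and 19.5 for WT serum, and 13.2 and 16.9 for P53-/- serum. No 2 of its groups overlapped, and the lowest levels were in P53-/- 2i.

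*Pvt1* was close to *Neat1* in WT 2i cells. Its FPKM was 12.6 and 11.3 for WT 2i, 0.527 and 0.558 for P53-/- 2i, 10.7 and 11.3 for WT serum, and 6.50 and 5.09 for P53-/- serum. The WT libraries of both cultures lay together, the P53-/- serum libraries lay below them, and the P53-/- 2i libraries stood far below all others. In WT 2i the ranges of *Neat1* (12.4 to 12.7) and *Pvt1* (11.3 to 12.6) overlapped, so their order could not be given there, and in the other 3 groups *Neat1* was above *Pvt1* in both libraries. *Miat* was the lowest in each group, at 0.0689 and 0.0211 FPKM for WT 2i, 0.0228 and 0 for P53-/- 2i, 0.198 and 0.246 for WT serum, and 0.322 and 0.127 for P53-/- serum. Its levels correspond to an estimated 0 to 5 fragments per 2i library and 11 to 36 per serum library if all came from the longest transcript. *Miat* therefore missed the filter for the tests, a mean of at least 0.5 FPKM over the 8 libraries, which the other 4 passed.

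**Figure D1:**
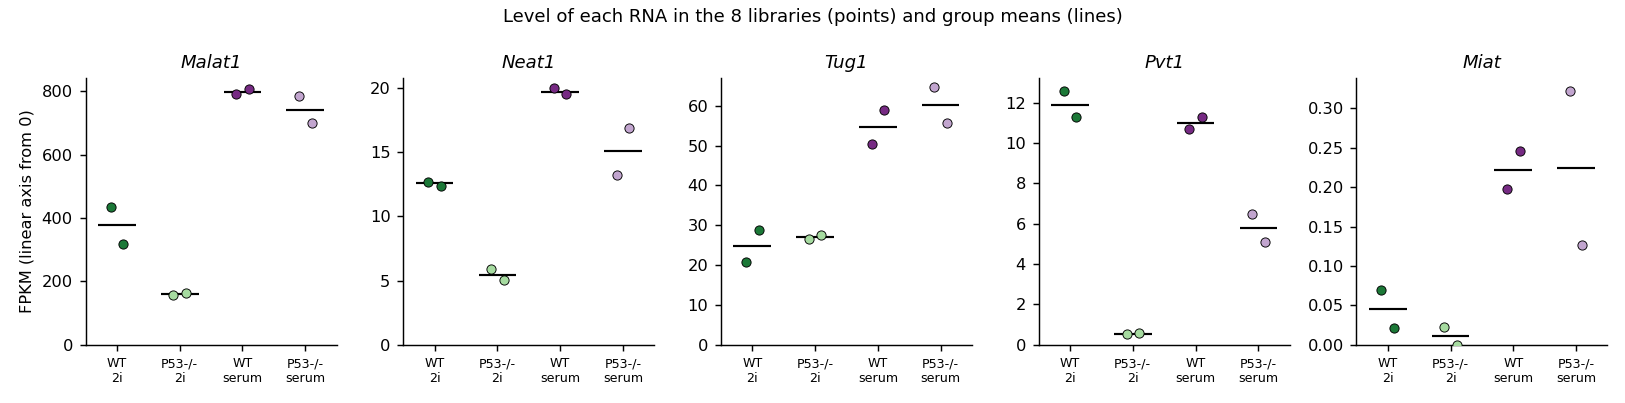
FPKM (linear axis from 0, a separate scale for each RNA) of *Malat1*, *Neat1*, *Tug1*, *Pvt1* and *Miat* in WT and P53-/- ESCs in 2i and serum, with 1 point per library and a line at the mean of 2 libraries. *Pvt1* is at 0.527 and 0.558 for P53-/- 2i against 11.3 and 12.6 for WT 2i, *Malat1* and *Neat1* are lowest in P53-/- 2i, and *Tug1* separates by culture only.

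The first question was which of these RNAs differed between P53-/- and WT cells in the ground state. In 2i, *Pvt1*, *Malat1* and *Neat1* were lower in P53-/- than in WT cells, and *Tug1* was not called. A gene was called at a limma adjusted p under 0.1 with a fold change over 1.5. By that rule 10.3% of the 12572 genes tested were called in this comparison, and 5.97% of those tested were lower. All fold changes are on the scale of log2(FPKM + 0.1). For the 3 tested genes of the Y chromosome the median log2 fold change for P53-/- minus WT was -3.89 in 2i and -5.92 in serum. Medians of the other chromosomes were -0.18 to 0.24 in 2i. The part of such clone differences in the results was not tested.

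*Pvt1* fell from 11.9 ± 0.906 FPKM (SD, n = 2) for WT 2i to 0.543 ± 0.0224 (SD, n = 2) for P53-/- 2i. The log2 fold change was -4.22 (standard error 0.18, 95% interval -4.63 to -3.81), which is 18.7-fold lower, with a limma adjusted p of 2.25e-05. It ranked 17 of 12572 when changes were ordered from the most negative, and 1 of 323 among the tested genes that GENCODE M21 annotates as lncRNAs. The P53-/- 2i levels rest on few reads, an estimated 3 to 17 fragments in library 1 and 1 to 10 in library 2, depending on which *Pvt1* transcript is assumed. Across the alternative settings the log2 fold change stayed between -4.43 and -3.06 and the call was kept in each.

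*Malat1* was 377 ± 82.4 FPKM (SD, n = 2) for WT 2i and 159 ± 3.62 (SD, n = 2) for P53-/- 2i. It was 2.33-fold lower (log2 fold change -1.22, standard error 0.17, 95% interval -1.62 to -0.82, limma adjusted p = 0.00886). The WT 2i libraries differed more from each other than those of any other group for this RNA, and both lay above the P53-/- libraries. *Neat1* was 12.6 ± 0.211 FPKM (SD, n = 2) for WT 2i and 5.46 ± 0.582 (SD, n = 2) for P53-/- 2i. It was 2.28-fold lower (log2 fold change -1.19, standard error 0.16, 95% interval -1.55 to -0.83, limma adjusted p = 0.00694). Both calls just missed the threshold when only the 2i libraries were fitted, with a limma adjusted p of 0.105 for *Malat1* and 0.104 for *Neat1*. A value per gene does not separate the short and long forms of *Neat1*. In bulk RNA a lower level cannot be divided into fewer cells with the RNA and less RNA per cell.

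*Tug1* was 24.9 ± 5.67 FPKM (SD, n = 2) for WT 2i and 27.1 ± 0.701 (SD, n = 2) for P53-/- 2i. The log2 fold change was 0.14 (95% interval -0.26 to 0.55, limma adjusted p = 0.668), an interval that leaves out a change as large as that of *Malat1* or *Neat1*. Without library 1 of WT 2i the value was -0.09. *Miat* was not tested, and its 2i libraries overlapped between WT and P53-/-. In a fit of all 18380 genes above 0, in which 7.5% were called, its log2 fold change was -0.37 (limma adjusted p = 0.634), a value that could not be resolved at this depth.

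In serum, the question was whether the same RNAs differed between P53-/- and WT cells outside the ground state. Only *Pvt1* was called among the 4, in a comparison where 1.02% of the genes tested were called and 0.883% were lower. *Pvt1* was 11 ± 0.371 FPKM (SD, n = 2) for WT serum and 5.79 ± 0.994 (SD, n = 2) for P53-/- serum. It was 1.90-fold lower (log2 fold change -0.92, standard error 0.18, 95% interval -1.33 to -0.51, limma adjusted p = 0.0945). Of the 323 lncRNAs tested, this was the 1 that was called lower, and 0 were called higher by limma, against 33 with an unadjusted p under 0.05. The adjusted p lay close to the threshold and 11 of 18 alternative settings moved it past, over a range of 0.0576 to 0.505. Leaving out library 1 or 2 of WT serum gave 0.505 and 0.459, library 2 of P53-/- serum 0.337, and any of the 2i libraries 0.136 to 0.146, while the log2 fold change stayed between -1.10 and -0.75.

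The other RNAs were not called in serum. *Neat1* was 19.7 ± 0.353 FPKM (SD, n = 2) for WT and 15.1 ± 2.65 (SD, n = 2) for P53-/- serum. Its log2 fold change was -0.40 (95% interval -0.76 to -0.03, limma adjusted p = 0.398), with both P53-/- libraries below both WT libraries. *Malat1* was 799 ± 11.8 FPKM (SD, n = 2) for WT and 742 ± 58.8 (SD, n = 2) for P53-/- serum, a log2 fold change of -0.11 (95% interval -0.51 to 0.29, limma adjusted p = 0.854). Even at this small change its libraries did not overlap, at 701 to 784 FPKM for P53-/- and 791 to 808 for WT serum. *Tug1* had a log2 fold change of 0.14 (95% interval -0.27 to 0.54, limma adjusted p = 0.813) with overlapping libraries. *Miat* overlapped as well and had a log2 fold change of -0.05 in the fit of all genes above 0, in which 0.522% were called (limma adjusted p = 1).

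The difference between both P53 effects was tested as an interaction over the 4 groups. It was called for *Pvt1*, at -3.30 on the log2 scale (standard error 0.25, 95% interval -3.88 to -2.72, limma adjusted p = 0.00178), so the drop in 2i exceeded that in serum by 9.85-fold. That size depends on the pseudocount, with log2 values of -2.24 at a pseudocount of 1 and -3.50 at 0.01, and the call was kept at both. Of the genes tested, 0.207% were called for this difference, 0.103% in each direction. For *Malat1* the difference was -1.11 (95% interval -1.68 to -0.55), with an unadjusted p of 0.00197 and a limma adjusted p of 0.169. For *Neat1* it was -0.79 (95% interval -1.31 to -0.28), with an unadjusted p of 0.00754 and a limma adjusted p of 0.216. A larger P53 effect in 2i was therefore not established for *Malat1* and *Neat1* after adjustment. For *Tug1* the difference was 0.00 (95% interval -0.57 to 0.58, limma adjusted p = 0.996), and its sign changed in 5 of 17 alternative settings.

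**Figure D2:**
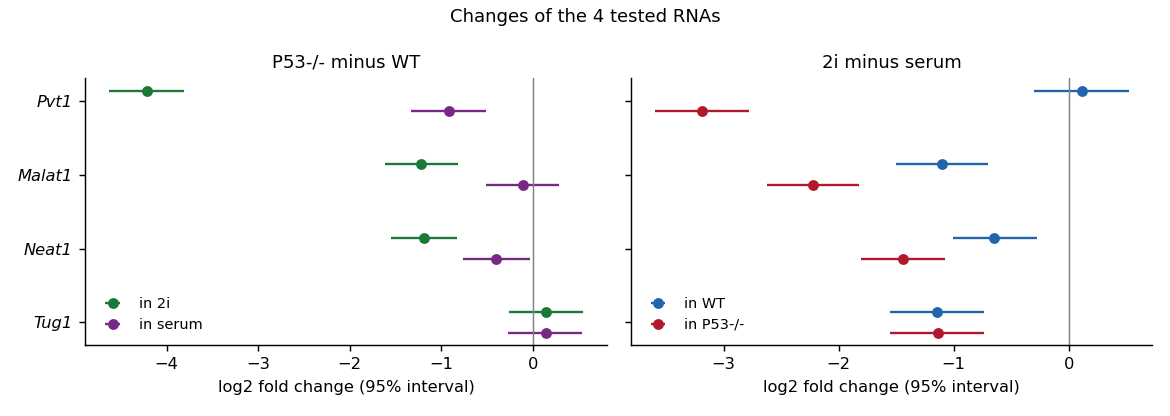
Log2 fold changes (points) with 95% intervals from limma (bars) of *Pvt1*, *Malat1*, *Neat1* and *Tug1* for P53-/- minus WT in 2i and serum (left) and for 2i minus serum in WT and P53-/- (right). For P53-/- minus WT, *Pvt1* is at -4.22 in 2i and -0.92 in serum and the intervals do not overlap, while those of *Tug1* both include 0. The panels share libraries and are not independent.

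The culture comparison asked how the levels differ between ground state and serum cells of 1 genotype. In WT cells, *Tug1*, *Malat1* and *Neat1* were called lower in 2i than in serum and *Pvt1* was not called. This comparison called 55.7% of the genes tested, 28.6% lower and 27.2% higher, so a call in it is common. *Tug1* was 2.22-fold lower in 2i (log2 fold change -1.15, standard error 0.17, limma adjusted p = 0.000929), *Malat1* 2.15-fold lower (-1.10, standard error 0.17, limma adjusted p = 0.00106) and *Neat1* 1.57-fold lower (-0.65, standard error 0.16, limma adjusted p = 0.00845). *Neat1* fell short of the fold threshold after quantile normalization, at -0.50. *Pvt1* had a log2 fold change of 0.11 (95% interval -0.30 to 0.52, limma adjusted p = 0.606), and the nearest libraries of both cultures were equal to 3 digits. For *Miat* the log2 fold change was -1.17 in the fit of all genes above 0, where 44% were called (limma adjusted p = 0.0434), and with pseudocounts of 1 and 0.01 it was -0.23 and -2.22.

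In P53-/- cells, all 4 tested RNAs were called lower in 2i than in serum, where 58.2% of the genes tested were called and 30.1% were lower. *Pvt1* was 9.11-fold lower (log2 fold change -3.19, standard error 0.18, limma adjusted p = 1.88e-05), with log2 values of -2.13 and -3.38 at pseudocounts of 1 and 0.01. *Malat1* was 4.65-fold lower (-2.22, standard error 0.17, limma adjusted p = 4.71e-05), and *Neat1* was 2.72-fold lower (-1.44, standard error 0.16, limma adjusted p = 0.000172). *Tug1* was 2.21-fold lower (-1.14, standard error 0.17, limma adjusted p = 0.000854), close to its value in WT cells. *Miat* had a log2 fold change of -1.48 in the fit of all genes above 0, where 46.4% were called (limma adjusted p = 0.017), and values of -0.27 and -3.56 at pseudocounts of 1 and 0.01. These comparisons and those of P53-/- with WT use the same 8 libraries, and the interaction above is also the test of whether the culture effect differs between genotypes.

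The genomic neighbours were examined because *Neat1* and *Malat1* lie next to each other and *Pvt1* lies beside *Myc*. In GRCm38, *Neat1* and *Malat1* are on the minus strand of chromosome 19, and the protein-coding gene *Frmd8* lies beside them. *Frmd8* was at 17.6 and 13 FPKM for WT 2i and 13.9 and 14.4 for P53-/- 2i, with overlapping libraries and a log2 fold change of -0.09 (limma adjusted p = 0.792). It was not called for P53, in 2i or in serum. *Frmd8* was 1.75-fold higher in WT 2i than in WT serum (limma adjusted p = 0.00495), the opposite direction to *Malat1* and *Neat1*.

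*Pvt1* is on the plus strand of chromosome 15, and *Myc*, which encodes a transcription factor that drives growth and proliferation, is its nearest upstream protein-coding gene on the same strand. *Myc* was at 0.895 and 0.161 FPKM for WT 2i, 0.349 and 0.464 for P53-/- 2i, 22.0 and 26.9 for WT serum, and 26.9 and 21.2 for P53-/- serum. It separated by culture and overlapped between genotypes in each. The log2 fold change of *Myc* was -0.02 for P53-/- minus WT in 2i (95% interval -1.26 to 1.22, limma adjusted p = 0.993) and -5.58 for 2i minus serum in WT (47.9-fold lower, limma adjusted p = 0.000116). *Pvt1* thus had a P53 difference without a called one in *Myc*, and *Myc* had a culture difference in WT without a called one in *Pvt1*. The wide interval for *Myc* in 2i comes with levels under 1 FPKM. *Gsdmc*, on the other side of *Pvt1*, was at 0 in 7 libraries and 0.0453 FPKM in 1 of P53-/- serum.

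**Figure D3:**
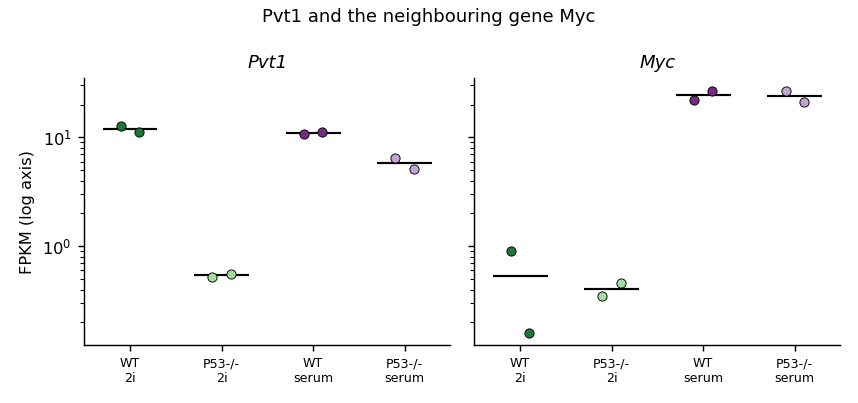
FPKM (log axis) of *Pvt1* and the neighbouring gene *Myc* in the 4 groups, with 1 point per library and a line at the mean of 2 libraries. *Pvt1* is lowest in P53-/- 2i (0.527 and 0.558), and *Myc* is low in both 2i groups (0.161 to 0.895) and high in both serum groups (21.2 to 26.9).

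*Tug1*, on chromosome 11, overlaps *Morc2a* on the opposite strand. The kit marks strand, but whether strand was used in counting is not given in the sources used here, so reads of these genes may not be fully separated. *Morc2a*, which encodes a chromatin-binding ATPase, was at 17.1 and 18.2 FPKM for WT 2i and 35.5 and 33.9 for WT serum (log2 fold change -0.97, limma adjusted p = 0.00113), the same direction as *Tug1*. *Smtn*, further along, was also lower in 2i (-0.93, limma adjusted p = 0.0108), and *Osbp2* was at 0 to 0.132 FPKM and was not tested. Around *Miat*, on chromosome 5, *Cryba4* was at 0 in 7 libraries and *Mn1* was at 0.617 and 0.541 FPKM for WT 2i and 0.380 and 0.208 for P53-/- 2i, a log2 fold change of -0.82 (limma adjusted p = 0.297).

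The 5 RNAs were set against 63 other lncRNAs with a row in the table, of which 42 were tested. In 2i, 4 of these were lower and 1 higher in P53-/- cells, a share of 11.9% that was near the 10.3% of all genes tested and the 10.8% of the 323 tested lncRNAs. The median log2 fold change was -0.24 beside 0.02 for all genes tested. The 323 tested lncRNAs did not lean this way, with 16 lower, 19 higher and a median of -0.01. *Mir124a-1hg*, a host transcript of a neuronal microRNA, was at 0.517 and 0.419 FPKM for WT 2i and 0.0755 and 0 for P53-/- 2i (log2 fold change -2.09, limma adjusted p = 0.0267). *Snhg11*, a snoRNA host transcript, was at 1.22 and 1.39 FPKM for WT 2i and 0.617 and 0.488 for P53-/- 2i (-1.11, limma adjusted p = 0.045). *Tsix*, the antisense RNA of *Xist*, was at 1.22 and 1 for WT 2i and 0.447 and 0.628 for P53-/- 2i (-0.93, limma adjusted p = 0.0547), and its reads cannot be told from those of *Xist* if strand was not used.

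*Lockd*, an RNA transcribed beside the cell cycle inhibitor gene *Cdkn1b*, was the one that rose, from 6.87 and 8.35 FPKM to 16.6 and 13.4 (log2 fold change 0.97, limma adjusted p = 0.0709). The fourth that fell was *Ptprv*, named after its values were seen since its mean was under 1 FPKM. The gene is named after a receptor-type tyrosine phosphatase and has been described as responsive to P53, and GENCODE M21 annotates it as a processed transcript and RefSeq as a transcribed pseudogene. It was at 1.37 and 2.17 FPKM for WT 2i and 0.0330 and 0.0587 for P53-/- 2i (-3.65, limma adjusted p = 0.0114). Its mean of 0.622 FPKM passed the filter only through the WT 2i libraries, the group where it was high, so its call is a description only. *Trp53cor1*, known as lincRNA-p21 and also named after its values were seen, was at 0.717 and 0.853 FPKM for WT 2i and 0.956 and 0.996 for P53-/- 2i, and was not called (log2 fold change 0.29, limma adjusted p = 0.779). The number called was 9 without library 1 of WT 2i and 3 without library 2 of P53-/- 2i.

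In serum, 0 of the 42 were called by limma and 4 had an unadjusted p under 0.05, and for the interaction 0 were called with 7 under 0.05, where 1.02% and 0.207% of all genes tested were called, so these counts are near the background. Between cultures in WT cells, 18 were lower and 12 higher in 2i (71.4%, beside 55.7% of all genes tested), with a median log2 fold change of -0.42 beside -0.02 for all genes tested. Of the 323 tested lncRNAs, 81 were lower and 79 higher (49.5%), with a median of -0.02. *H19*, an imprinted RNA, was at 0 and 0.0848 FPKM for WT 2i and 2.41 and 1.51 for WT serum (-3.89, limma adjusted p = 0.000381). *Kcnq1ot1*, the RNA that silences an imprinted cluster in cis, was at 0.667 and 0.717 for WT 2i and 7.25 and 8.18 for WT serum (-3.30, limma adjusted p = 2.92e-05). *Halr1*, from the *Hoxa* region, fell likewise (-3.21, limma adjusted p = 0.000409), whereas *Hotairm1* from the same region was called higher (3.32, standard error 1.48, limma adjusted p = 0.0866). Its WT libraries overlapped between cultures, at 11.2 and 3.58 FPKM in 2i and 4.06 and 0 in serum. In P53-/- cells, 23 were lower and 9 higher in 2i (76.2%, beside 58.2%), with a median of -0.79, and of the 323 lncRNAs 98 were lower and 76 higher (53.9%), with a median of -0.16.

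Proteins that bind or build the bodies around these RNAs were counted next, from lists of genes. Of the 30 paraspeckle protein genes, all of which were tested, 0 were lower and 2 were higher in P53-/- 2i (6.67%, beside 10.3% of all genes tested), with a median log2 fold change of 0.16 beside 0.02 for all genes tested. These were *Fam98a* (0.71, limma adjusted p = 0.0579), at 3.43 and 4.21 FPKM for WT 2i and 7.27 and 5.41 for P53-/- 2i, and *Zc3h6* (1.60, limma adjusted p = 0.0467), at 0.421 and 0.304 FPKM for WT 2i and 1.23 and 1.35 for P53-/- 2i, named after its values were seen. The count was 1 without library 1 of P53-/- 2i, without either WT 2i library and without either WT serum library. At an unadjusted p under 0.05 there were 7 in either direction. The 0 called lower by limma are near the 5.97% of all genes tested that were called lower. In serum and for the interaction 0 were called by limma, with 1 and 5 under 0.05, again near the background of 1.02% and 0.207%.

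Between cultures, 18 genes of the same list were lower in 2i and 2 higher in WT cells (66.7%, beside 55.7% of all genes tested), with a median log2 fold change of -0.81. In P53-/- cells 15 were lower and 2 higher (56.7%, beside 58.2% of all genes tested), with a median of -0.57. *Taf15*, which encodes an RNA-binding protein, was at 9.09 and 8.57 FPKM for WT 2i and 80.8 and 85.9 for WT serum (-3.22, limma adjusted p = 1.87e-05). *Hnrnph3* (-3.18, limma adjusted p = 5.29e-05) and *Fam98a* (-2.76, limma adjusted p = 3.17e-05) fell as well.

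Of the 34 nuclear speckle protein genes and *Miat*-binding protein genes, 33 were tested and *Celf3* was at 0 in each group. In P53-/- against WT, 0 were called by limma in 2i, in serum or for the interaction, with 4, 0 and 2 at an unadjusted p under 0.05, and the medians were 0.01, 0.05 and -0.06. Of all genes tested, 10.3%, 1.02% and 0.207% were called in these comparisons, so the counts in serum and for the interaction are near the background. Without library 1 or 2 of WT 2i the count in 2i was 2 and 1. Between cultures in WT cells 22 were lower and 1 higher in 2i (69.7%), with a median of -1.05, where 55.7% of all genes tested were called and 28.6% were lower. In P53-/- cells 26 were lower and 2 higher (84.8%), with a median of -1.10, where 58.2% of all genes tested were called and 30.1% were lower. *Pnn*, a splicing-associated protein, was at 9.40 and 13.3 FPKM for WT 2i and 74.2 and 68.9 for WT serum (-2.67, limma adjusted p = 3.19e-05). *Srrm2*, a scaffold of speckles, was at 11.8 and 13.3 for WT 2i and 58.4 and 63.7 for WT serum (-2.28, limma adjusted p = 2.85e-05). *Sf1*, the branch point protein that binds the *Miat* repeat, was at 13.3 and 11.3 for WT 2i and 48.9 and 51.0 for WT serum (-2.02, limma adjusted p = 5.42e-05).

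**Figure D4:**
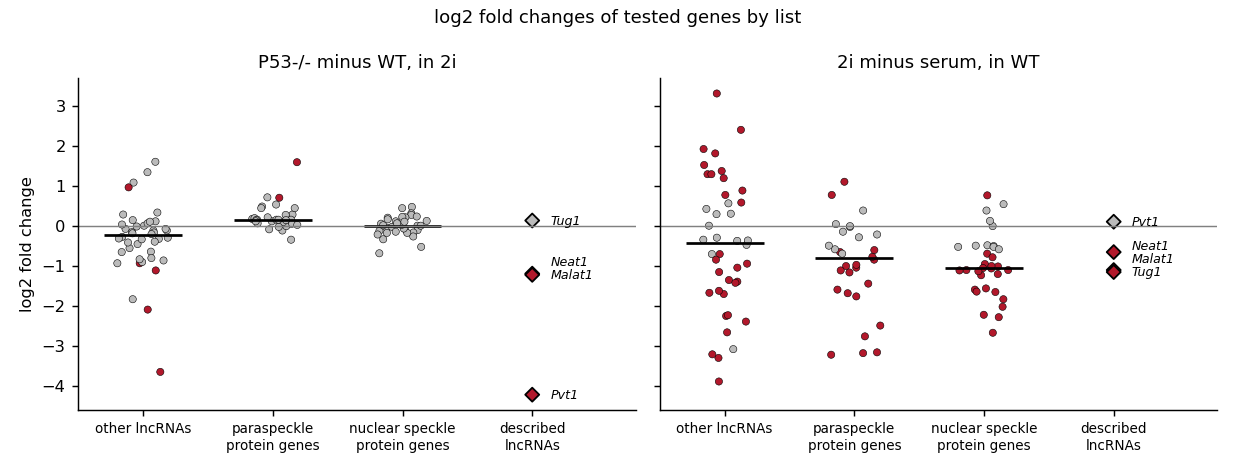
Log2 fold changes of the tested genes of each list (points, with a line at the list median) and of *Pvt1*, *Malat1*, *Neat1* and *Tug1* (diamonds), for P53-/- minus WT in 2i (left) and for 2i minus serum in WT (right), with called genes in red. In the left panel the speckle genes lie around 0 (median 0.01) and *Pvt1* is at -4.22, and in the right panel the medians of the 3 lists are at -0.42, -0.81 and -1.05.

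Protein-coding genes with the most similar pattern were found by Pearson's r of log2(FPKM + 0.1) over the 8 libraries, among 10932 genes. The 8 points fall into culture groups and share libraries, so r is a description. The genes were picked for their likeness over these same libraries, so their calls for P53 are descriptions as well. For *Pvt1* the closest were *Lama5* (0.984), *Ntn1* (0.980) and *Plod2* (0.978), and 111 genes were above 0.9. *Plod2*, which encodes a collagen-modifying enzyme, was at 17.1 and 15.2 FPKM for WT 2i, 4.79 and 5.44 for P53-/- 2i, 19.2 and 19.4 for WT serum, and 11.3 and 12.1 for P53-/- serum, with P53-/- 2i lowest and P53-/- serum next. *Lama5*, which encodes a laminin chain, was at 6.40 and 6.18 FPKM for P53-/- 2i and 14.2 and 15.6 for WT 2i, while its serum libraries overlapped between genotypes, at 14.3 and 11.8 in P53-/- and 13.4 and 14.5 in WT. Neither *Lama5* (log2 fold change -0.11, limma adjusted p = 0.826) nor *Ntn1* (-0.20, limma adjusted p = 0.712) was called for P53 in serum, where *Pvt1* and *Plod2* (-0.72, limma adjusted p = 0.0872) were. For *Neat1* they were *Zfhx2* (0.995), *Mtus1* (0.990) and *Fbxo34* (0.989), with 268 above 0.9. *Zfhx2* was at 1.39 in both WT 2i libraries, 0.456 and 0.345 for P53-/- 2i, 2.60 and 2.89 for WT serum, and 1.83 and 2.18 for P53-/- serum.

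For *Malat1* the closest genes were *Ssh2* (0.992), *Tet2* (0.992) and *Gid8* (0.991), and 759 were above 0.9. *Tet2*, which encodes an enzyme of DNA demethylation, was at 32.1 and 20.1 FPKM for WT 2i and 13.5 and 13.3 for P53-/- 2i, and its WT 2i library 1 was the higher, as for *Malat1*. For *Tug1* they were *R3hdm1* (0.996), *Kdm6a* (0.996) and *Zbtb41* (0.995), with 2303 above 0.9, so its pattern was shared by many genes. For *Miat* they were *B230217C12Rik* (0.988), *Arhgap32* (0.987) and *Mtor* (0.987), with 916 above 0.9.

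Summed levels of markers of other cell types differed between some groups, while few single markers were called for P53. The sum of 8 fibroblast markers was 2.66 to 2.73 FPKM for WT 2i, 1.75 to 1.89 for P53-/- 2i, 8.31 to 8.90 for WT serum and 9.35 to 11.7 for P53-/- serum, with *Col3a1* and *Postn* at 0 in each group. That of 6 primitive endoderm markers was 2.49 to 4.36 for WT 2i and 1.47 to 2.32 for P53-/- 2i, and 2.62 to 2.82 for WT serum and 1.28 to 1.35 for P53-/- serum. That of 6 neural markers was 32 to 34.3 for WT 2i and 23.0 to 28.0 for P53-/- 2i, and 28.2 to 30 for WT serum and 37.9 to 42.6 for P53-/- serum, the opposite order. For 5 markers of 2-cell-like cells the libraries of P53-/- 2i had sums of 3.82 and 38.7, and those of WT 2i 5.57 and 13.2, so the groups overlapped. In serum the sums were 0.363 and 8.66 for P53-/- and 1.98 and 2.05 for WT. For P53-/- minus WT, 1 of 4 tested neural markers was called lower in 2i and 0 in serum by limma, with 2 and 1 at an unadjusted p under 0.05. Of the tested fibroblast (2), primitive endoderm (1) and 2-cell-like markers (4), 0 were called by limma in either culture, and the primitive endoderm marker in serum was the 1 with an unadjusted p under 0.05. Of all genes tested, 10.3% were called in 2i and 1.02% in serum, and with so few markers these counts cannot be set apart from those shares. The part of these markers in the results was not tested.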

How the data were processed

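Total RNA of G1-sorted WT and P53-/- ESCs was depleted of ribosomal RNA and made into stranded libraries. The authors deposited FPKM values by gene symbol. The submitters' processing notes name STAR, Cufflinks, DESeq2 and mm9, without roles. Columns name genotype and culture only, so libraries are numbered by column order. P21-/- libraries and the WT 2i libraries beside them were not analysed here.

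The 12572 of 24881 genes whose FPKM averaged 0.5 or more were tested on log2(FPKM + 0.1) with limma 3.58.1 in R 4.3.3, in 1 fit of the 4 groups with trend and Benjamini-Hochberg adjustment. A pseudocount understates changes of low genes. An exact test of 2 against 2 libraries cannot go below 0.33. Symbols were matched to GENCODE M21 (98.2%), and promoters came from RefSeq. Tested on simulated data for P53-/- against WT in 2i, the fit called 60 of 100 genes with a log2 change of 1 and 92 of 100 with 2, with 11 false calls among 12572 genes. The simulated spread was normal, capped and independent between genes and libraries, without effects shared within a clone or library. Changes were placed only in genes above a minimum level, so rates in the real data may be worse. The 5 RNAs and all lists were chosen with earlier results of these data known. Named genes are the 5 RNAs, *Trp53*, *Cdkn1a*, their neighbours, up to 4 called genes per list and contrast with the largest change and a mean of at least 1 FPKM (not all are printed), and the 3 most similar genes.

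Alternatives were pseudocounts of 1 and 0.01, 2 other filters, quantile normalization, median-ratio scaling, eBayes without trend, only the groups compared, a table without small RNA genes, and each library left out. Centring on chromosome medians was added after seeing the data.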

Additional observations from a re-analysis of the deposited data

Results flagged for a closer look

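*Pvt1* was flagged because its P53 effect differed between the cultures. The log2 interaction was -3.30 with a standard error of 0.25 (limma adjusted p = 0.00178), from FPKM of 0.527 and 0.558 in P53-/- 2i against 12.6 and 11.3 in WT 2i, and of 6.50 and 5.09 in P53-/- serum against 10.7 and 11.3 in WT serum. Both P53-/- libraries lay below both WT libraries in each culture, an order also seen for *Malat1* and *Neat1* and so not particular to *Pvt1*. No other of the 4 tested RNAs was called for this difference.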

How the results depend on the processing

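The 20 results of the 4 tested RNAs were recomputed in 356 alternative values. Of these, 336 kept direction and side of the threshold, 14 lost the call, 0 gained one and 6, all of *Tug1*, changed sign. With only the groups compared, *Neat1* (-1.19) and *Malat1* (-1.22) in 2i and *Pvt1* in serum (-0.92) lost their calls. *Pvt1* in serum also lost it with all genes above 0 (-0.92), without trend (-0.92), after quantile normalization (-0.89) and with 7 of the 8 libraries left out in turn (-1.10 to -0.75 over all 8, the call being kept at -1.10, without library 1 of P53-/- serum). *Neat1* in WT between cultures lost it after quantile normalization (-0.50). *Tug1* changed sign in 2i with a library left out (-0.09 to 0.37) and in the interaction after quantile normalization (-0.05) and with a library left out (-0.23 to 0.24). The cause was not tested, except that fits of the compared groups hold fewer libraries.

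Over the whole table, 1299 genes were called in 2i, 193 with only the groups compared and 491 to 1224 with a library left out. In serum the 128 became 37 and 52 to 148. For the interaction the 26 became 66 with a pseudocount of 1, 40 without trend, 40 without small RNA genes, 52 after chromosome centring (chosen after seeing the data) and 19 to 69 with a library left out. The other lncRNAs called in 2i numbered 5, with 2 at a pseudocount of 1, 1 with only the groups compared and 3 to 9 with a library left out. In serum 0 became 1 with all genes above 0, without trend, without small RNA genes and after chromosome centring. Of paraspeckle genes in 2i, 2 became 1 at a mean FPKM of at least 1, 0 with only the groups compared, and 1 to 2 with a library left out. Of speckle genes in 2i, 0 became 1 after quantile normalization, 2 after chromosome centring and 0 to 2 with a library left out. No paired analysis was possible because the columns carry no replicate numbers. FPKM keeps no counts, so the depth behind *Miat* and behind *Pvt1* in P53-/- 2i is an estimate. A left-out library leaves a lone library that is assumed to vary like the other groups.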
